A study of Rattus norvegicus with 45 samples.

Results

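Signals of 31 constitutive proteasome subunit genes were described across 45 rat hippocampal arrays. The genes were chosen by symbol in the gene annotation of the arrays (Psma, Psmb, Psmc or Psmd followed by a number), without the immune subunits Psmb8, Psmb9 and Psmb10 and without probe sets that list several genes. They are 31 of 12941 genes with a symbol of their own on the array, and each was read from its brightest probe set. Of the 31, 13 encode the core particle and 18 the cap or its assembly. Psma3, whose probe sets also list another gene, and Psma8, Psmb11, Psmd10 and Psmd14 were not analysed here.

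The arrays came from 15 male F344xBN rats, a hybrid of the Fischer 344 and Brown Norway strains, with CA1, CA3 and dentate gyrus (DG) of each animal on separate arrays. The 5 classes held 3 animals each. CRO_PP and CRO_GP were calorie restricted rats of 28 months that were classed as poor or good performers by behaviour. ALO_PP and ALO_GP were ad libitum fed rats of 28 months, again poor and good performers, and ALMA were ad libitum fed rats of 18 months with no performance class. Restriction was stepwise through 10% and 25% from an age of 14 weeks, and stood at 40% from 17 weeks onward. No 18-month restricted rats were analysed here. The sources used here do not name the behavioural test. The values are bulk tissue signals, in which fewer cells of a type and less RNA per cell cannot be told apart.

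The proteasome is the main protease of the cytosol and nucleus and degrades proteins that carry ubiquitin chains. Its core particle is a barrel of stacked rings: the outer alpha rings (Psma genes) gate the entry, and the inner beta rings (Psmb genes) hold the proteolytic sites, of which Psmb5 is chymotrypsin-like, Psmb6 caspase-like and Psmb7 trypsin-like. The cap has a base with a ring of ATPases (Psmc1 to Psmc6) that unfold the substrate and push it into the core. The base also holds large scaffold subunits (Psmd1 and Psmd2) and the ubiquitin receptor Psmd4. The other part of the cap is a lid (Psmd3, Psmd6, Psmd7, Psmd8, Psmd11, Psmd12 and Psmd13, with Psmd14), in which ubiquitin is removed. Psmd5 and Psmd9 are chaperones that help to assemble the base and are not part of the finished particle. In neurons the proteasome turns over synaptic proteins, and its genes are known to be raised together by the transcription factor Nfe2l1 when proteasome activity is short.

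The promoters of 4 core genes are shown, chosen with their values in old and middle-aged rats known. Psma2 and Psma4 were lower in old rats in the scaled signals, and Psmb7 and Psmb5 were higher in old rats in the dChip signals. These signals are 2 sets of values that the authors made from the same arrays. Psmb3 was also higher in old rats in the dChip signals, and its promoter is not shown. The sequences are from RefSeq on build GRCr8, run 5′ to 3′ from 250 bases before to 50 bases after the start of the gene, and carry in capitals the matches to CCAAT, the box read by NF-Y, and to TGACNNNGC, the core of the antioxidant response element. Both strands were searched, so a match on the other strand appears in its reverse complement.
Psma2, chr17:55260392-55260691, minus strand: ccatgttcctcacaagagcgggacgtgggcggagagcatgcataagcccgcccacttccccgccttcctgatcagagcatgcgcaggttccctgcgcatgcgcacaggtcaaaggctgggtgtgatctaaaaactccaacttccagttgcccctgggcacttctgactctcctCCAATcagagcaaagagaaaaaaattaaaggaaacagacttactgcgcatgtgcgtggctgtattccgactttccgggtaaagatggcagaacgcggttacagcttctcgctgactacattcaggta
Psma4, chr8:64236270-64236569, plus strand: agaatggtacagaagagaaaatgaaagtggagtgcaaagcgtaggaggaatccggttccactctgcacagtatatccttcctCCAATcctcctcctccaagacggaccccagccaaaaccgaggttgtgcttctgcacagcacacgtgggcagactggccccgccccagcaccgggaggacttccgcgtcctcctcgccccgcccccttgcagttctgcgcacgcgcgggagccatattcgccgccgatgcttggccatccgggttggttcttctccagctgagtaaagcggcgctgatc
Psmb7, chr3:42827421-42827720, minus strand: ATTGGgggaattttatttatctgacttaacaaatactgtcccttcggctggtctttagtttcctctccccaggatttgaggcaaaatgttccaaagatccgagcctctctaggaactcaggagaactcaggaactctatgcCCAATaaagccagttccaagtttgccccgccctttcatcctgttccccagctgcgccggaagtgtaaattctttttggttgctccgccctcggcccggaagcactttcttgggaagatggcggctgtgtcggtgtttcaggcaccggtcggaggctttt
Psmb5, chr15:32047330-32047629, minus strand: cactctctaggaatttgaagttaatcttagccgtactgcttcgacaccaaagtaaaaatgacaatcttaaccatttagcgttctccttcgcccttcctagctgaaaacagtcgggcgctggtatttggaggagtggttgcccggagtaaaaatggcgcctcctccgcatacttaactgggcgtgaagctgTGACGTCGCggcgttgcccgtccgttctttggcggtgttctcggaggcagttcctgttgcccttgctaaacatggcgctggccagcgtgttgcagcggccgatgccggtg
Psma2 had 1 CCAAT box, 77 bases before the start, and Psma4 had 1 at 168 bases before it. Psmb7 had 2, at 109 bases before the start and, on the other strand, at 250 bases before it. Psmb5 had no CCAAT and 1 TGACNNNGC match, 60 bases before the start. The promoter of Psmb3 had 2 CCAAT and 0 TGACNNNGC matches. Promoters of 28 of the 31 genes could be matched by gene ID. CCAAT was in 14 of the 28, namely 8 of 12 core and 6 of 16 cap promoters, and in 37.5% of all 33469 promoters of that length. TGACNNNGC was in 6 of the 28 (21.4%), namely 3 core and 3 cap promoters, and in 12.1% of all. These matches are letters in a window, and no overlap between the 2 motifs occurs in the sequences shown.

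Each array carried a signal for 31099 probe sets, scaled by the authors to a trimmed mean of about 150, and the number of arrays sets the precision of what follows. Region markers separated the dissections in part. The summed signal of 2 CA1 markers (Wfs1 and Pou3f1) was 2279 to 4876 on CA1 arrays and 604 to 3785 on the others and that of 3 CA3 markers (Bok, Grik4 and Cpne4) was 991 to 2238 on CA3 arrays, 678 to 1669.6 on DG arrays and 602 to 1469 on CA1 arrays. ALO_PP replicate 3 of CA3 had the lowest CA3 marker sum of the CA3 arrays and, at 3785, the highest CA1 marker sum of them, within the range of CA1 arrays, so results in CA3 are also given without it. The summed signal of 3 dentate granule markers was 144 to 295 on DG arrays and 38.3 to 169 on the others, with Prox1 called present on 6 arrays only. ALO_GP replicate 1 of DG had the lowest of these DG sums. It also had the highest DG sums of meninges and fibroblast (1965, DG median 203), endothelial (1724, median 660) and blood markers (2840, median 417). Without it the DG calls of Psmc5 with age and Psma6 with diet, given below, were lost (limma, adjusted p = 0.0783 and 0.0612). The other DG calls with age and diet in the scaled signals held. The control transcript DapX-3, added to the RNA before labelling, fell into 3 ranges, at 534 to 700.0 on all 9 ALMA arrays, 148 to 283 on all 18 ALO arrays and 4 CRO_GP arrays (3 of CA1 and 1 of CA3), and 0.495 to 12.6 on the other 14 CRO arrays. Age therefore cannot be told apart from this step, nor can restricted old against middle-aged rats, diet in DG, or performance among the restricted CA1 rats, whose good performers lay in the middle range and poor performers in the lowest. Diet in CA3 is largely mixed with it as well. There 5 of the 6 restricted arrays lay in the lowest range and all 6 ad libitum arrays in the middle one. In CA1 3 of the 6 restricted arrays lay in the lowest range. The 2 arrays that the authors marked as outliers, CRO_PP replicate 3 in CA1 and CRO_PP replicate 4 in CA3 of the same rat, had a 5′ to 3′ signal ratio of Gapdh of 0.131 and 0.165, against 0.296 to 0.673 on the other 43 arrays. One restricted DG array is a good performer by its title and a poor performer by its array name, and 1 ALMA CA3 array repeats an animal code; both were placed by their titles.

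All 31 genes were called present on 45 of 45 arrays. Mean signals placed them between percentiles 68.6 (Psmd9) and 98.9 of all probe sets, so that none sat near the filter on low values. Over the 15 combinations of class and region, the highest group mean of a gene was 1.13 to 1.97 times its lowest, with a median of 1.41 for core genes and 1.44 for cap genes. The coefficient of variation within a group was 4.02% to 18.5% with a median of 8.55%.

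In ad libitum rats, 2 alpha ring genes of the core, Psma2 and Psma4, were lower at 28 than at 18 months in all 3 regions of the scaled signals. In the authors' dChip signals Psma4 passed in no region and Psma2 did not pass in DG. Of the 31 genes, 1 was called higher and 3 lower in CA1, 0 higher and 4 lower in CA3, and 1 higher and 3 lower in DG. These calls came from limma tests on log2(signal + 16) with an adjusted p under 0.05 over all 18659 probe sets tested. The share of members called lower was 9.68%, 12.9% and 9.68% in the 3 regions, above the 3.32%, 2.69% and 3.42% of all probe sets, whereas the share called higher was 3.23%, 0% and 3.23%, below the 7.22%, 6.2% and 7.97% of all. All 6 alpha ring genes had a difference below 0 in every region, with medians of -0.21 in CA1, -0.22 in CA3 and -0.19 in DG, and the 7 beta ring genes had medians of 0.015, 0.11 and 0.0037. Over all probe sets tested the medians were -0.0038, 0.019 and 0.026. The alpha ring median stayed below 0 and the beta ring median above 0 under quantile normalization (alpha -0.20, -0.19 and -0.15, beta 0.037, 0.16 and 0.054) and in the authors' dChip signals (alpha -0.11, -0.11 and -0.075, beta 0.16, 0.20 and 0.090), although 1 of the 6 alpha genes was above 0 in DG under quantile normalization and in CA3 and DG in dChip signals.

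Psma2, a gate-forming alpha subunit, had signals of 319 to 413 with a median of 366 in the 6 old ad libitum CA1 samples, against 569, 542 and 575 in middle-aged CA1. In CA3 its signals were 348 to 426 with a median of 360.5 in old rats and 517, 602 and 566 in middle-aged rats. In DG they were 321 to 431 with a median of 398 in old rats and 518, 539.6 and 455 in middle-aged rats. Every old sample was below every middle-aged sample in each region. The log2 difference was -0.60 ± 0.12 in CA1 (SE, limma, adjusted p = 0.00741), -0.58 ± 0.10 in CA3 (limma, adjusted p = 0.00354) and -0.39 ± 0.084 in DG (limma, adjusted p = 0.00973). The calls in CA1 and CA3 held without any 1 of the 9 arrays, whereas limma's adjusted p in DG was 0.0543 without ALMA replicate 1 and 0.0586 without ALMA replicate 2. The fitted differences place Psma2 in old rats at 0.659, 0.667 and 0.762 times its middle-aged level in the 3 regions.

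Psma4, its neighbour in the alpha ring, had signals of 682 to 792 with a median of 708 in old CA1 and 910.1, 932 and 951 in middle-aged CA1. The old CA3 samples ran from 689 to 784 with a median of 738, against 915, 965 and 974 in middle-aged CA3. Old DG samples ran from 694 to 800.4 with a median of 739, against 995, 929 and 876 in middle-aged DG. Again the age groups did not overlap in any region. The log2 differences were -0.36 ± 0.087, -0.37 ± 0.095 and -0.32 ± 0.071 in CA1, CA3 and DG (limma, adjusted p = 0.0188, 0.0266 and 0.0123). Leaving out ALMA replicate 2 or 3 in CA1 gave an adjusted p of 0.0743 or 0.0869, and leaving out ALMA replicate 1 in DG gave 0.0801, all by limma. In CA3 the call of Psma4 was lost without any 1 of 6 arrays, the 3 ALMA arrays among them (limma, adjusted p from 0.0512 to 0.104). In dChip signals its differences were smaller, at -0.089, -0.11 and -0.044 in CA1, CA3 and DG (limma, adjusted p = 0.389, 0.203 and 0.621).

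A pair of ATPases of the base were also lower in old rats. Psmc6 had signals of 503 to 639.5 with a median of 586 in old CA1 and 769, 721 and 713 in middle-aged CA1, with no overlap and a log2 difference of -0.36 ± 0.11 (limma, adjusted p = 0.0476). In CA3 the difference was -0.27 ± 0.079 (limma, adjusted p = 0.0475), and in DG, at -0.17 ± 0.11, it did not pass (limma, adjusted p = 0.372). The other 2 probe sets of Psmc6 gave log2 differences of -0.40 and -0.18 in CA1 and of -0.22 and -0.22 in CA3, none past the threshold. The Psmc6 call was lost in 8 of 9 fits without 1 array in CA1 and in all 9 in CA3 (limma, adjusted p up to 0.131 and 0.185). Psmc5 was lower in CA3, with signals of 1060.2 to 1520.4 with a median of 1114 in old rats and 1568, 1595 and 1580.1 in middle-aged rats. Its 6 old samples all lay below the middle-aged ones, although ALO_PP replicate 4 came close at 1520. The Psmc5 difference was -0.43 ± 0.10 in CA3 (limma, adjusted p = 0.0172) and -0.23 ± 0.07 in DG (limma, adjusted p = 0.0498), where the age groups overlapped. Without ALMA replicate 1, 2 or 3 the CA3 call was lost (limma, adjusted p = 0.058, 0.0705 and 0.0647), and the DG call was lost in 8 of 9 such fits (adjusted p up to 0.209). Without ALO_PP replicate 3 of CA3, whose markers resembled CA1, 0 members were called higher and 2 lower with age in CA3, Psma2 and Psmc5 (4.71% and 1.68% of all probe sets).

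Genes called higher in old rats were Psmb7, the trypsin-like catalytic subunit, in DG and the assembly chaperone Psmd9 in CA1. Psmb7 had signals of 1220.5, 1426 and 1418 in ALO_PP DG and 908, 915 and 983 in ALO_GP DG, against 886, 766 and 985 in ALMA DG. The poor performers were the high samples, and the good performers overlapped the middle-aged rats. The log2 difference was 0.36 ± 0.09 (limma, adjusted p = 0.0219), lost without ALMA replicate 1 or 2 (adjusted p = 0.0727 and 0.119). Differences of 0.28 ± 0.093 in CA1 and 0.37 ± 0.14 in CA3 did not pass (limma, adjusted p = 0.0715 and 0.111). Psmd9 had signals of 116 to 140.4 with a median of 134 in old CA1 and 101, 90.5 and 103 in middle-aged CA1, which did not overlap, with a log2 difference of 0.37 ± 0.096 (limma, adjusted p = 0.0261). Its dimmer second probe set pointed the other way, at -0.20 ± 0.12 (limma, adjusted p = 0.322), and the call was lost without ALMA replicate 1, 2 or 3, ALO_GP replicate 1 or ALO_PP replicate 2 (adjusted p from 0.0515 to 0.132).

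The other catalytic subunits did not pass in this signal. Psmb5 differed by 0.12 ± 0.098, 0.11 ± 0.091 and 0.064 ± 0.092 and Psmb6 by -0.19 ± 0.092, -0.24 ± 0.10 and -0.20 ± 0.095 in CA1, CA3 and DG. The 95% interval for Psmb5 in CA1 was -0.09 to 0.33, and the difference of Psmb7 in CA1 lay within it. No member was called for an age effect that differed between regions: the interaction F test in limma called 0 of 31 members and 0 of 18659 probe sets (0%), with 0 members and 587 probe sets at an unadjusted p under 0.05. Microglial markers moved with age too, with 3, 4 and 3 of 5 called higher in CA1, CA3 and DG and a summed signal of 1303 to 4121 in old against 742 to 1048 in middle-aged samples; their part in the proteasome results was not tested. Of 4 neuron and 5 astrocyte markers none was called with age in any region, but in CA3 the summed neuron markers did not overlap, at 11400.0 to 14025 in old against 14536 to 15554 in middle-aged samples. The astrocyte marker Gfap was higher in every old than in every middle-aged sample of each region, at 3624 to 3998 against 2722 to 3244 in CA1. The list did not move as Gfap did: the median log2 difference of the 5 astrocyte markers was 0.012, -0.095 and 0.012 in CA1, CA3 and DG. The CA1 marker sum was 1420.3 to 3785 in old CA3 against 691 to 1603 in middle-aged CA3, with 1 of the 2 markers called higher. Of 4 oligodendrocyte markers 1 was called higher in each region, whereas their median log2 difference was 0.080 in CA1, -0.27 in CA3 and 0.057 in DG. The 1 choroid plexus marker tested differed by -0.25, -3.03 and -1.09 in CA1, CA3 and DG and was not called. The summed meninges and fibroblast markers did not overlap in CA3, at 245 to 526 in old against 593 to 765 in middle-aged samples. Signs of RNA quality moved with age as well. The Gapdh ratio was 0.522 to 0.571 in old and 0.444 to 0.479 in middle-aged CA3, and the share of probe sets called present was 62.8% to 65.5% in old and 60.9% to 62.0% in middle-aged CA1 and 61.2% to 65.0% in old and 58.9% to 61.1% in middle-aged CA3, each without overlap. The part of these markers and signs was not tested either.

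**Figure D1:**
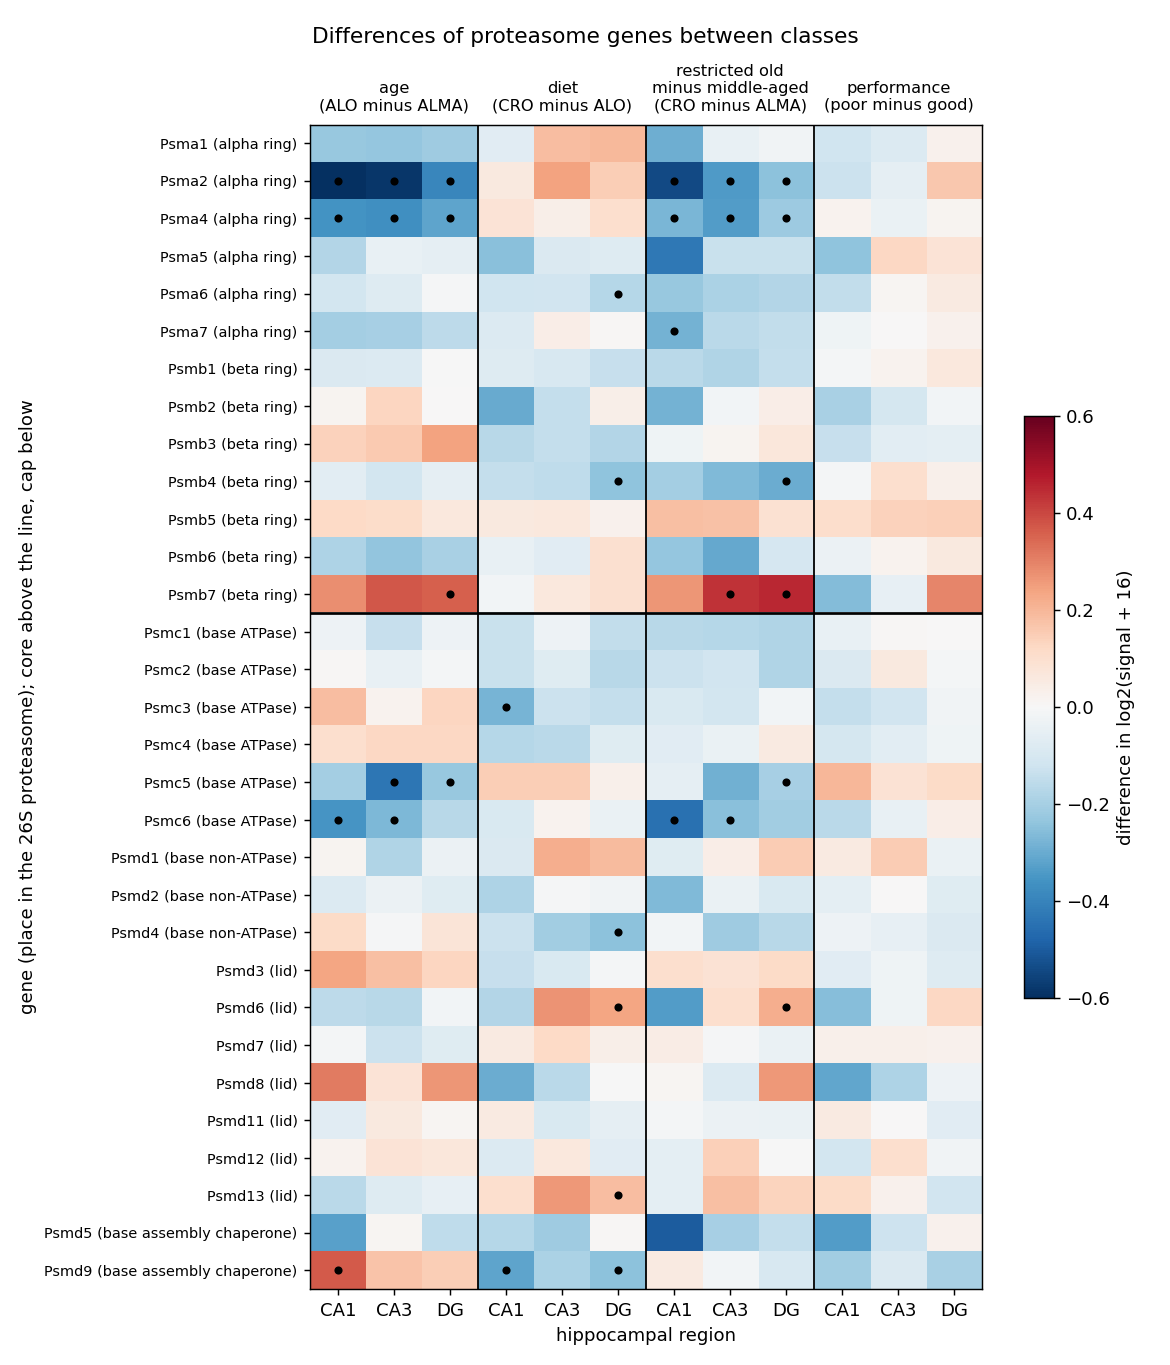
Colour shows the difference in log2(signal + 16) for each of 31 genes (rows, grouped by place in the particle, core above the line) in 4 class comparisons and 3 regions (columns). Black dots mark limma calls at an adjusted p under 0.05; Psma2 and Psma4 carry dots in all 3 regions for old ad libitum against middle-aged rats and for restricted old against middle-aged rats, and the performance columns carry none.

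**Figure D2:**
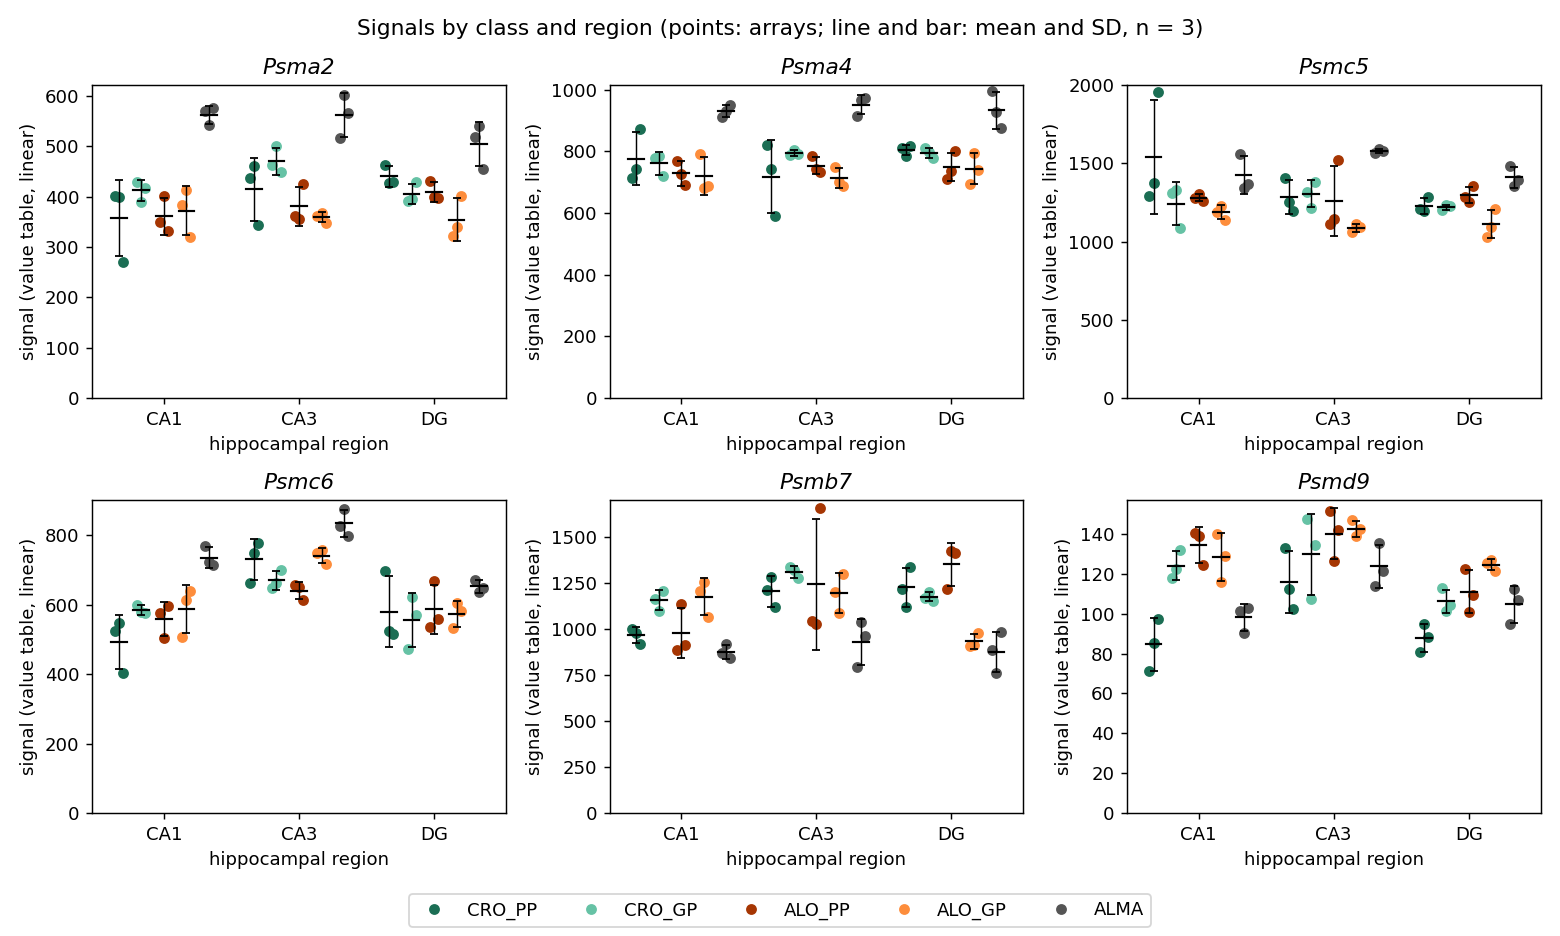
Signals of 6 genes (vertical axis, linear scale from 0) on every array, by class in the order CRO_PP, CRO_GP, ALO_PP, ALO_GP and ALMA within each region, with the mean and SD of 3 arrays. ALMA points of Psma2 and Psma4 stand above those of all 4 old classes in CA1 and CA3, and ALMA points of Psmb7 lie at the low end.

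The authors also deposited signals computed in dChip, and in those values the family looked different. The median difference of the 31 genes between old and middle-aged ad libitum rats was 0.057 in CA1, 0.048 in CA3 and 0.072 in DG in the dChip table, against -0.063, -0.047 and -0.018 in the scaled signals, and -0.017, -0.0059 and 0.044 after quantile normalization of these, so the sign of the family median differed between the 2 tables in every region and changed with quantile normalization in DG alone; the cause was not tested. It was 0.065, 0.047 and 0.04 for all probe sets tested in the dChip table. No gene was called in opposite directions by the 2 tables. In the dChip values 6 members were called higher and 2 lower in CA1 (19.3% and 6.66% of all probe sets), 4 higher and 3 lower in CA3 (15.8% and 5.47%) and 4 higher and 0 lower in DG (8.34% and 2.27%). Of the members called in both tables in the same direction there were 3 in CA1 (Psma2, Psmc6 and Psmd9), 3 in CA3 (Psma2, Psmc5 and Psmc6) and 1 in DG (Psmb7).

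The beta ring genes Psmb3, Psmb5 and Psmb7 were called higher in old rats in all 3 regions in the dChip table. Psmb7 had dChip signals of 3319 to 4671 with a median of 4111 in old CA1 and 2855 to 3180.0 with a median of 3049 in middle-aged CA1, a log2 difference of 0.41 ± 0.094 (limma, adjusted p = 0.0125). It differed by 0.50 ± 0.13 in CA3 and 0.50 ± 0.083 in DG (limma, adjusted p = 0.0289 and 0.00936). No old sample of Psmb7 overlapped a middle-aged sample in any region in that table. Psmb5, the chymotrypsin-like subunit, had dChip signals of 5650.5 to 6456 with a median of 6266 in old DG and 4872 to 5305 with a median of 5152 in middle-aged DG, a log2 difference of 0.27 ± 0.056 (limma, adjusted p = 0.0205), with 0.24 ± 0.073 in CA1 and 0.22 ± 0.056 in CA3. Psmb3, a beta subunit without a proteolytic site, differed by 0.29 ± 0.078, 0.31 ± 0.069 and 0.31 ± 0.078. The age groups of Psmb3 and Psmb5 did not overlap in any region either. Psma2 remained lower in dChip values in CA1 at -0.29 ± 0.082 and CA3 at -0.32 ± 0.072 (limma, adjusted p = 0.0288 and 0.0158), and in DG its -0.17 ± 0.063 did not pass (limma, adjusted p = 0.135).

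**Figure D3:**
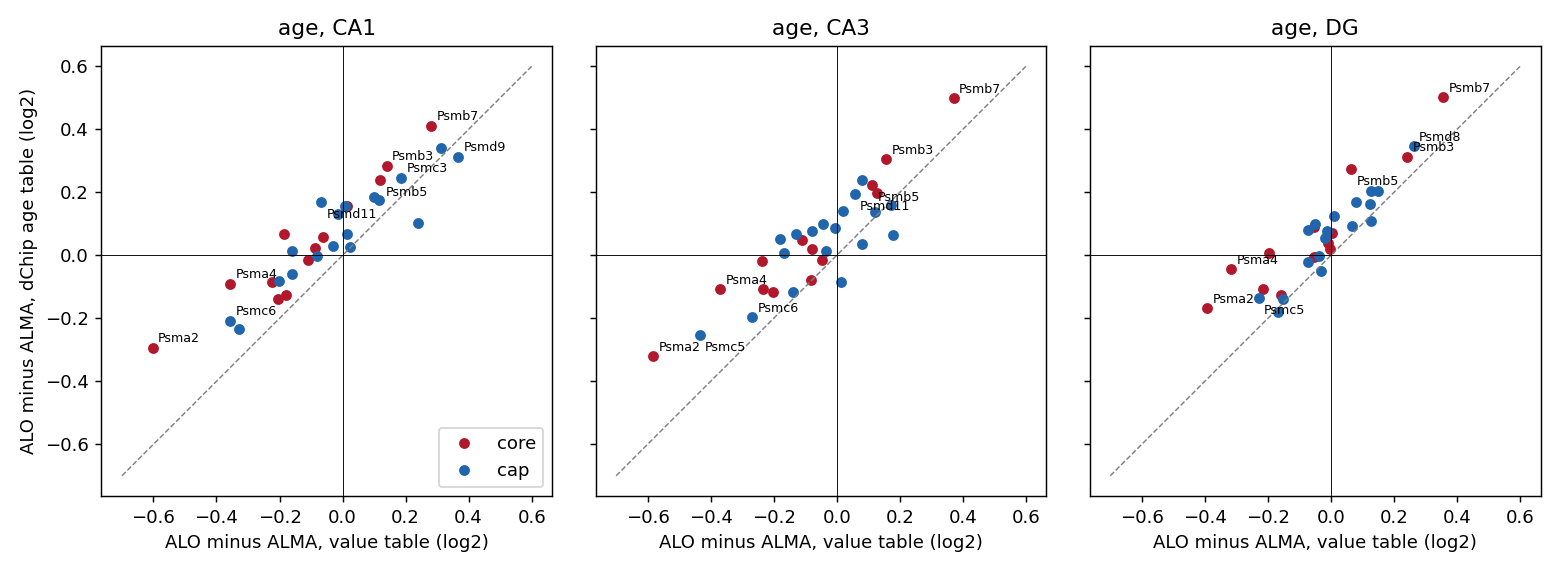
Log2 difference between old (ALO) and middle-aged (ALMA) rats for the 31 genes, in scaled signals (horizontal) and dChip signals (vertical), with core genes in red and cap genes in blue, 1 panel per region. Most points lie above the dashed line of equal values; genes called in either table are named, with Psmb7 at the upper right and Psma2 at the lower left.

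In the authors' deposited table of age with regions together, 16 of the 31 genes were listed, 11 with a positive and 5 with a negative fold. That table held 4849 probe sets, 3657 of them positive. The authors' deposited table gave Psmb7 a signed fold of 1.39, Psmb3 1.23, Psmb5 1.19 and Psmd8 1.25, and on the negative side Psma2 -1.2, Psmc6 -1.15, Psmc5 -1.11, Psma7 -1.09 and Psma1 -1.07. For single regions the authors' deposited tables listed 0 of the 31 genes among 2161 probe sets in CA1, 3 among 1482 in CA3 (Psmb5, Psmd11 and Psmc1) and 1 among 920.0 in DG (Psmb5). The folds in the authors' deposited tables were made from dChip signals and share arrays with the dChip comparison above.

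Between calorie restricted and ad libitum rats of 28 months, few proteasome genes differed. In CA1, 0 members were called higher and 2 lower (0% and 6.45% of members, against 4.71% and 2.21% of all probe sets). These were the ATPase Psmc3 and the chaperone Psmd9, both in the cap list. In CA3, 0 were called higher and 0 lower (5.1% and 4.05% of all probe sets), with 7 members (22.6%) at an unadjusted p under 0.05 in limma, against 25.5% of all probe sets. In DG, 2 were called higher and 4 lower (6.45% and 12.9%, against 12.7% and 10.2%), close to or below the background. Median differences of core and cap genes were -0.077 and -0.13 in CA1, -0.067 and -0.053 in CA3, and 0.025 and -0.029 in DG, so that they shared a sign in CA1 and CA3 and not in DG. Without ALO_PP replicate 3 of CA3, too, 0 members were called in either direction there (2.7% higher and 1.61% lower of all probe sets).

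Psmc3 in CA1 had signals of 774, 770.0 and 722 in CRO_PP and 1010.3, 949 and 939 in CRO_GP rats, against 979.5 to 1227 with a median of 1008 in ad libitum rats. Psmd9 in CA1 had 71.0, 85.4 and 97.3 in CRO_PP and 118, 122 and 132 in CRO_GP rats, against 116 to 140.4 with a median of 134 in ad libitum rats. For both genes the low samples were the 3 CRO_PP arrays, and the CRO_GP arrays overlapped the ad libitum ones. The log2 differences were -0.28 ± 0.075 and -0.31 ± 0.078 (limma, adjusted p = 0.042 and 0.0334). The 3 CRO_PP arrays of CA1 also belong to the lowest range of DapX-3, and within the arrays of the middle range, CRO_GP against ALO, the differences were -0.10 and -0.073 (limma, adjusted p = 0.593 and 0.698). Both calls were lost without any 1 of 8 arrays (adjusted p from 0.0545 to 0.104), and the second probe set of Psmd9 gave 0.12 ± 0.10. Without the 2 marked arrays 3 members were called lower in CA1, Psmc3, Psmd9 and Psmd4, and 0 higher (3.2% and 6.63% of all probe sets).

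In CA3 the gene with the smallest p for diet was Psmd13, a lid subunit, with 461 to 636 with a median of 507 in restricted and 411 to 466 with a median of 420.2 in ad libitum rats. The highest ad libitum sample exceeded the 2 lowest restricted ones, and the difference of 0.26 ± 0.079 missed the threshold (limma, adjusted p = 0.0531). Without the 2 marked arrays, an alternative chosen after the data were seen, 4 members were called higher and 1 lower in CA3 (11.4% and 10.3% of all probe sets). They were Psmd6 at 0.32 ± 0.075, Psma2 at 0.30 ± 0.068, Psma1 at 0.28 ± 0.059 and Psmd13 at 0.20 ± 0.064 on the higher side, and Psmb4 at -0.20 ± 0.063. All but 1 of the restricted CA3 arrays lie in the lowest DapX-3 range and the ad libitum ones in the middle range. In the authors' deposited table of diet in CA3, with 1596 probe sets, Psma1 was the only one of the 31 genes listed, with a signed fold of 1.12. The authors' deposited tables of diet listed 0 of the 31 among 350.0 probe sets in CA1 and 0 among 2406 in DG. With regions together the authors' deposited table listed 3 of the 31 among 4203 probe sets, Psma1 at 1.08, Psmb3 at -1.07 and Psmd11 at -1.08.

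In DG the lid genes Psmd6 and Psmd13 were higher in restricted rats. Psmd6 had signals of 657 to 796 with a median of 734 in restricted and 569 to 709 with a median of 623 in ad libitum DG, a log2 difference of 0.23 ± 0.061 (limma, adjusted p = 0.0149). Psmd13 had 383 to 475 with a median of 432 in restricted and 366 to 409 with a median of 372 in ad libitum DG, a difference of 0.19 ± 0.053 (limma, adjusted p = 0.0225). The groups overlapped in both genes. The ubiquitin receptor Psmd4 was lower, at 475 to 599 with a median of 549 in restricted and 609.9 to 678 with a median of 648 in ad libitum DG, without overlap, a difference of -0.25 ± 0.056 (limma, adjusted p = 0.00775). Also lower were the chaperone Psmd9 at -0.25 ± 0.064, the beta subunit Psmb4 at -0.24 ± 0.066 and the alpha subunit Psma6 at -0.17 ± 0.052, a call lost in 8 of 12 fits without 1 array (limma, adjusted p up to 0.0741). Of these 6 genes Psmd6 alone was called in the dChip table as well, at 0.21 ± 0.049 (limma, adjusted p = 0.0103), where Psma4 and Psmb7 were called higher and Psmd11 lower (12.7% and 19.2% of all probe sets). In CA1 the dChip table called 0 higher and 1 lower, Psmd9 (5.55% and 4.96%), and in CA3 0 in either direction (2.98% and 5.98%). Psmd13 in DG differed there by 0.0036 ± 0.054, and its call in the scaled signals was lost without ALO_GP replicate 3 or CRO_GP replicate 3 (limma, adjusted p = 0.0528 and 0.0592). Astrocyte markers moved with diet in DG, 3 of 5 being called lower, with a summed signal of 12335 to 15864 in restricted and 14724 to 19154 in ad libitum samples. CA3 markers moved there too, 2 of 3 being called higher, with a sum of 1352 to 1669.6 in restricted and 678 to 1355 in ad libitum DG samples. Of 4 neuron markers 1 was called higher and 1 lower, and their sum was 9254.6 to 12279 in restricted and 10959 to 13103 in ad libitum DG samples. The part of these markers in the DG results was not tested. No member was called for a diet effect that differed between regions by the limma interaction test, which called 84 of 18659 probe sets (0.45%); the smallest adjusted p of a member was 0.0991, for Psmd1, with 3 members (9.68%) at an unadjusted p under 0.05, against 20.2% of all probe sets.

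In the scaled signals none of the 3 catalytic subunits was called with diet in any region, whereas Psmb7 in DG was called in the dChip table at 0.16 ± 0.046 (limma, adjusted p = 0.0258). In the scaled signals Psmb5 differed by 0.06 ± 0.08, 0.062 ± 0.074 and 0.025 ± 0.075, Psmb6 by -0.046 ± 0.075, -0.067 ± 0.082 and 0.094 ± 0.078, and Psmb7 by -0.015 ± 0.076, 0.062 ± 0.11 and 0.094 ± 0.073 in CA1, CA3 and DG. The 95% intervals in DG were -0.14 to 0.19 for Psmb5, -0.073 to 0.26 for Psmb6 and -0.063 to 0.25 for Psmb7.

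Restricted rats of 28 months were set against ad libitum rats of 18 months, a comparison that shares its ALMA arrays with the age comparison and its CRO arrays with the diet comparison. Called higher and lower were 0 and 4 members in CA1 (9.8% and 4.94% of all probe sets), 1 and 3 in CA3 (9.68% and 5.18%) and 2 and 4 in DG (16.5% and 10.4%). Psma2 and Psma4 were lower in all 3 regions here also. Psma2 had 270.3 to 429.5 with a median of 401 in restricted CA1, 344 to 499.5 with a median of 454 in restricted CA3 and 392 to 463 with a median of 428 in restricted DG, against the middle-aged values above. Restricted and middle-aged samples of Psma2 did not overlap in CA1 and CA3 and overlapped in DG, where the highest restricted sample exceeded the lowest middle-aged one. The differences were -0.54 ± 0.12, -0.34 ± 0.10 and -0.25 ± 0.084 (limma, adjusted p = 0.0103, 0.0356 and 0.0443). The Psma2 call was lost without ALMA replicate 3 in CA1 (adjusted p = 0.0541), in 4 of 9 such fits in CA3 and in 7 of 9 in DG (limma, adjusted p up to 0.156 and 0.186). The differences of Psma4 were -0.27 ± 0.087, -0.33 ± 0.095 and -0.22 ± 0.071, without overlap between the groups in any region, and its call was lost in 8 of 9 such fits in CA1, 4 in CA3 and 5 in DG (limma, adjusted p up to 0.164, 0.105 and 0.169).

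Psmb7 was higher in restricted than in middle-aged rats, at 1121 to 1341 with a median of 1283 in restricted CA3 against 796, 1038 and 965 in middle-aged CA3, and at 1125 to 1339 with a median of 1188 in restricted DG against 886, 766 and 985 in middle-aged DG. The groups did not overlap in either region. Its differences were 0.43 ± 0.14 and 0.45 ± 0.09 (limma, adjusted p = 0.0484 and 0.00239). The DG call held without any 1 of 9 arrays, whereas the CA3 call was lost in 8 of 9 such fits (adjusted p from 0.0673 to 0.215). Psmc6 was lower in CA1 at -0.45 ± 0.11, a call lost without ALMA replicate 2 (limma, adjusted p = 0.0505). It was also lower in CA3 at -0.25 ± 0.079, as was the alpha subunit Psma7 in CA1 at -0.29 ± 0.088, and each of these calls was lost in 8 of 9 fits without 1 array (limma, adjusted p up to 0.181 and 0.13). Lower in DG were Psmb4, whose call was lost without ALMA replicate 2 or 3 (limma, adjusted p = 0.0684 and 0.0535), and Psmc5, whose call was lost in 8 of 9 such fits (adjusted p up to 0.185), at -0.30 ± 0.081 and -0.20 ± 0.07. Psmd6 was higher in DG at 0.22 ± 0.075, a call lost without any 1 of 7 arrays (limma, adjusted p up to 0.13).

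Cell type markers moved in this comparison too. In DG 2 of 4 neuron markers and 2 of 5 astrocyte markers were called lower, with sums of 9254.6 to 12279 in restricted against 12605 to 14623 in middle-aged samples for neurons and 12335 to 15864 against 16352 to 16987 for astrocytes, and 2 of 3 CA3 markers were called higher. In CA3 1 astrocyte marker was called lower and 1 of 4 oligodendrocyte markers higher, and in CA1 1 oligodendrocyte marker higher. The median log2 difference of the 4 oligodendrocyte markers was -0.31 in CA3, against the called marker, and 0.21 in CA1. The 1 choroid plexus marker tested differed by 0.36, -3.02 and -0.0041 in CA1, CA3 and DG and was not called. Of 5 microglial markers 1, 1 and 2 were called higher in CA1, CA3 and DG, and their sum did not overlap in any region, at 1127 to 1370.5 in restricted against 742 to 1018 in middle-aged DG. The Gapdh ratio was 0.486 to 0.641 in restricted and 0.382 to 0.421 in middle-aged DG, also without overlap. The part of these values in the proteasome results was not tested.

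Between poor and good performers of 28 months no gene of the 31 passed the test: 0 members were called higher and 0 lower, against 0.0107% and 0.0536% of all probe sets in CA1, 0% and 0% in CA3, and 0.0161% and 0.0161% in DG. At an unadjusted p under 0.05 in limma there were 3, 0 and 4 members (9.68%, 0% and 12.9%), against 12.4%, 5.32% and 6.88% of all probe sets. Without ALO_PP replicate 3 of CA3, too, 0 members were called in CA3. Psmb7 had the smallest p in DG, with 1125 to 1426 with a median of 1281 in poor and 908 to 1204 with a median of 1069.7 in good performers and a difference of 0.29 ± 0.073 (limma, adjusted p = 0.318). In CA1 Psmb7 differed by -0.26 ± 0.076 (limma, adjusted p = 0.214), with 889.6 to 1136 with a median of 951 in poor and 1066 to 1258 with a median of 1189 in good performers. The median of poor performers thus lay above that of good ones in DG and below it in CA1, with overlap in both regions, and the difference between regions was not tested. Psmd9 and Psmd8 in CA1 differed by -0.21 ± 0.078 and -0.31 ± 0.13, Psmd1 and Psma5 in CA3 by 0.15 ± 0.08 and 0.13 ± 0.066, and Psmd9, Psma2 and Psmd13 in DG by -0.19 ± 0.064, 0.16 ± 0.069 and -0.11 ± 0.053, none of them called.

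Between regions of the 9 ad libitum rats, CA3 carried higher signals of several cap genes than CA1 and DG. With the animal as a block, 5 members were called higher and 0 lower in CA3 than in CA1 (16.1% and 0% of members, against 7.25% and 7.24% of all probe sets). In DG against CA3, 0 were called higher and 7 lower (0% and 22.6%, against 14.8% and 13.4%). In DG against CA1, 0 were called higher and 0 lower (7% and 5.95% of all probe sets). By limma 1 member (3.23%), Psmd5, had an unadjusted p under 0.05, against 25.1% of all probe sets. The difference of Psmd5 was 0.20 ± 0.074 (limma, adjusted p = 0.0765). Of the called genes, 4 of 5 and 6 of 7 belonged to the cap list, which holds 18 of the 31 genes. The 2 comparisons share the CA3 arrays. Without the animal of ALO_PP replicate 3 of CA3, 5 members were called higher and 0 lower in CA3 than in CA1 (8.25% and 7.94% of all probe sets), with Psmd9 in place of Psmd13, and 0 higher and 6 lower in DG than in CA3 (14.9% and 13.8%), without Psmd8. In the fits of all 9 animals the 3 CA3 markers were called higher in CA3 than in CA1 and lower in DG than in CA3, and 2 of the 3 were called higher and 1 lower in DG than in CA1. For DG minus CA3 1 neuron, 1 oligodendrocyte, 1 microglial and 1 meninges marker were called lower and 1 endothelial marker higher. The Gapdh ratio was 0.522 to 0.571 in CA3 and 0.377 to 0.513 in DG of ALO rats. In ALMA rats it was 0.444 to 0.479 in CA3 and 0.382 to 0.421 in DG. In CA1 it was 0.296 to 0.542 in ALO and 0.371 to 0.436 in ALMA rats. The part of these markers and ratios was not tested.

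Psmd8, a lid subunit, had signals of 203 to 402 with a median of 302 in the 9 ad libitum CA3 samples, 185 to 319 with a median of 264 in DG and 175 to 284 with a median of 221 in CA1. The ranges overlapped, and the difference within animals was 0.38 ± 0.081 for CA3 minus CA1 (limma, adjusted p = 0.00393) and -0.23 ± 0.081 for DG minus CA3 (limma, adjusted p = 0.039). The second of these was lost without any 1 of 5 animals (limma, adjusted p from 0.0502 to 0.126). By their CA1 arrays these were ALMA replicate 2 or 3, ALO_GP replicate 3 or ALO_PP replicate 1 or 2. The animal of CA1 array ALO_PP replicate 2 is that of ALO_PP replicate 3 of CA3. Psmc6 had 612 to 876 with a median of 748 in CA3, 533 to 671 with a median of 606 in DG and 503 to 769 with a median of 612 in CA1. It differed by 0.24 ± 0.058 for CA3 minus CA1 and by -0.28 ± 0.058 for DG minus CA3 (limma, adjusted p = 0.0101 and 0.00126), and both calls held without any 1 of the 9 animals. The caspase-like subunit Psmb6 was the core gene among the calls, at 0.16 ± 0.053 and -0.16 ± 0.053. Psmc4 and Psmd13 were called in both comparisons too, at 0.15 ± 0.049 and 0.14 ± 0.045 for CA3 minus CA1, and Psmd1 and Psmd9 in DG minus CA3 alone, at -0.16 ± 0.056 and -0.23 ± 0.056. For CA3 minus CA1 the calls of Psmb6, Psmc4 and Psmd13 were lost in 6, 7 and 7 of 9 fits without 1 animal (limma, adjusted p up to 0.125, 0.136 and 0.117). For DG minus CA3 those of Psmb6, Psmc4 and Psmd1 were lost in 3, 2 and 7 (limma, adjusted p up to 0.0781, 0.0545 and 0.125), and those of Psmd13 and Psmd9 in 0. Of the 5 calls for CA3 minus CA1, 2 (Psmc6 and Psmd8) were also made in the dChip age table, whereas Psmb6, Psmc4 and Psmd13 did not pass (limma, adjusted p = 0.133, 0.169 and 0.243). For DG minus CA3 5 of the 7 were made there, and Psmb6 and Psmd13 did not pass (limma, adjusted p = 0.286 and 0.445). The catalytic Psmb5 and Psmb7 passed in no region pair, with differences of 0.031 ± 0.05 and 0.14 ± 0.11 for CA3 minus CA1.

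**Figure D4:**
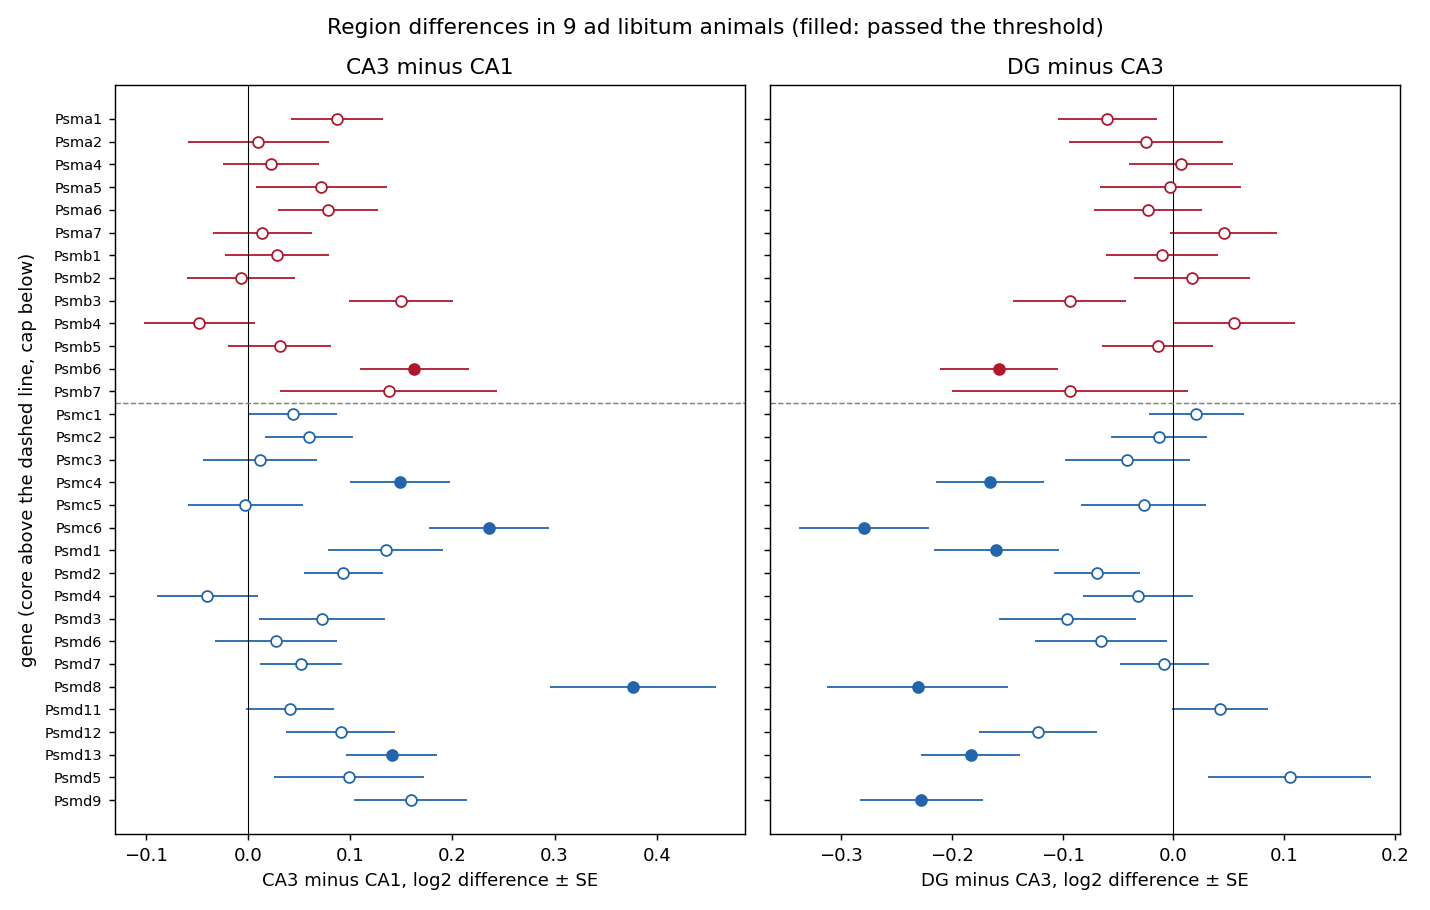
Log2 differences with SE for CA3 minus CA1 (left) and DG minus CA3 (right) in 9 ad libitum animals, 1 row per gene, core in red above the dashed line and cap in blue below it. Filled points passed the threshold in limma: 5 lie right of 0 on the left panel and 7 left of 0 on the right panel, with Psmd8 and Psmc6 farthest from 0 in each.

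Set against each other, the mean log2 signal of the core genes was lower relative to that of the cap genes in old than in middle-aged ad libitum rats in the scaled signals. This core minus cap value averaged 0.50 ± 0.072 in ALO CA1 (SD, n = 6) and 0.61 ± 0.038 in ALMA CA1 (SD, n = 3), 0.49 ± 0.029 in ALO CA3 and 0.53 ± 0.049 in ALMA CA3, and 0.54 ± 0.067 in ALO DG and 0.60 ± 0.035 in ALMA DG. The class differences of -0.11, -0.049 and -0.062 compare with a spread within classes of 0.060, 0.037 and 0.037 (SD), and the groups overlapped in all 3 regions. In dChip values they were -0.039, 0.00057 and 0.00028, so the shift in CA3 and DG rests on the scaled signals. With medians over members in place of means the CA1 difference was -0.010, and without ALMA replicate 3 the CA3 difference was -0.020. Restricted old against middle-aged rats, which share the ALMA arrays, differed by -0.079, -0.047 and -0.040. The core mean moved by -0.11, -0.090 and -0.056 and the cap mean by -0.0019, -0.042 and 0.0058 in CA1, CA3 and DG.

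With diet the core minus cap value differed by 0.031, 0.0013 and 0.021 in CA1, CA3 and DG, each within the spread within classes. With medians over members in place of means it differed by 0.0815 in CA1 and 0.0641 in DG. Both means were lowest in CRO_PP CA1, at 9.57 ± 0.099 for core and 9.03 ± 0.065 for cap genes (SD, n = 3), against 9.73 ± 0.048 and 9.20 ± 0.0065 in CRO_GP CA1, and 9.72 ± 0.11 and 9.24 ± 0.051 in ALO_PP CA1. The 3 CRO_PP CA1 arrays lay below every other CA1 array in their cap mean. By performance, the value in DG was 0.60 ± 0.036 in poor and 0.50 ± 0.036 in good performers (SD, n = 6 each), a difference of 0.091 against a spread within classes of 0.037, or 0.033 with medians over members, while CA1 and CA3 differed by -0.010 and 0.017. In DG it was 0.60 ± 0.010 in CRO_PP, 0.52 ± 0.049 in CRO_GP, 0.59 ± 0.055 in ALO_PP and 0.49 ± 0.0055 in ALO_GP rats (SD, n = 3). Core genes in DG had a median difference of 0.052 between poor and good performers, with 11 of 13 above 0, and cap genes one of -0.023, with 12 of 18 below 0. These values describe a list that was chosen with results known and carry no test. The core minus cap value was lower in CA3 than in CA1 by 0.040 and higher in DG than in CA3 by 0.059, against a spread of 0.050.

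**Figure D5:**
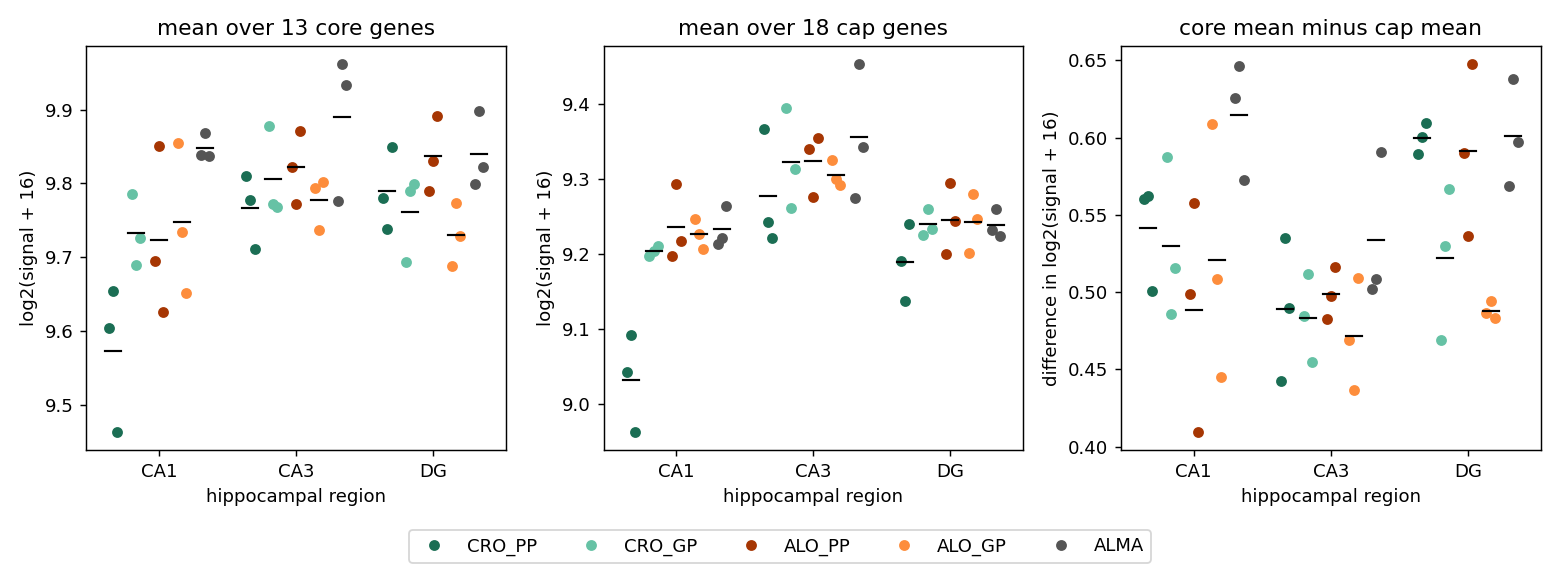
Mean log2(signal + 16) over the 13 core genes (left), over the 18 cap genes (middle) and their difference (right) on every array, by class within each region, with the mean of 3 arrays as a line. CRO_PP arrays of CA1 lie lowest in the cap mean, ALMA arrays lie high in the core mean and in the difference in CA1, and poor performers lie above good performers on average in the difference in DG.

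Of 31 listed genes around the proteasome, 21 had a probe set and all were tested. With age, 3 were called higher and 0 lower in CA1, 1 higher and 1 lower in CA3, and 0 in DG, where 8 had an unadjusted p under 0.05 in limma, as had 26.6% of all probe sets. Of all probe sets 7.22% were called higher and 3.32% lower in CA1, 6.2% and 2.69% in CA3, and 7.97% and 3.42% in DG. In CA1 these were the immune subunits Psmb8 at 0.58 ± 0.11 and Psmb9 at 0.54 ± 0.15, and the shuttle factor Ubqln4 at 0.38 ± 0.10, which carries ubiquitinated proteins to the cap. In CA3 the immune subunit Psmb10 at 0.34 ± 0.097 was higher and the activator Psme3 at -0.31 ± 0.091 was lower. With diet, 0 were higher and 1 lower in CA1 (Psmb8, -0.33 ± 0.093) and in CA3 (Psmb10, -0.32 ± 0.079). Of all probe sets 4.71% were called higher and 2.21% lower in CA1, and 5.1% and 4.05% in CA3. In DG 1 was higher and 5 were lower in restricted rats, against 12.7% and 10.2% of all probe sets. The higher one was Adrm1, a ubiquitin receptor of the cap, at 0.94 ± 0.11 (limma, adjusted p = 0.000179). The lower ones were the ubiquitin genes Ubb and Rps27a (-0.29 ± 0.097 and -0.28 ± 0.091), the activator subunit Psme2, the ligase Ube3a and the cap-bound deubiquitinase Uchl5 (-0.31 ± 0.089, -0.34 ± 0.072 and -0.23 ± 0.058). All 6 restricted DG arrays lie in the lowest DapX-3 range. In CA1 Adrm1 had 30.4, 30.4 and 32.6 in CRO_GP (middle range) and 62.5, 33.8 and 67.7 in CRO_PP (lowest range). In CRO_GP CA3 it had 37.9 on the array of the middle range and 60.2 and 69.5 on those of the lowest. The CRO_PP CA3 arrays, all of the lowest range, had 36.3, 61.5 and 47.6. The part of this step was not tested. The transcription factors Nfe2l1 and Nfe2l2 and the processing enzyme Ngly1 were called in none of the age and diet comparisons.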

How the data were processed

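RNA of CA1, CA3 and DG from 15 rats was hybridised to 45 Affymetrix RAE 230 2.0 arrays, 1 array per region and animal, per the labels' protocols. The authors deposited 1 table of signal intensities for all 5 classes, linear and scaled to a trimmed mean of 150.04 to 150.05 per array; its software is not given in the sources. They also deposited dChip signal intensities for the ad libitum arrays and for the arrays of 28-month rats, per the file headers. The lists of signed folds that the authors deposited came from class comparisons of those dChip intensities in BRB array tools, per the file headers. The first table is the basis here because it alone holds all classes.

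Intensities were taken as log2(intensity + 16), probe sets at or below the 40th percentile of mean signal were left out (18659 of 31099 kept), and limma 3.58.1 in R 4.3.3 was fitted to all 18659, with Benjamini-Hochberg adjustment over all of them and a threshold of 0.05. Each region was fitted over its 15 arrays with 5 class means sharing 1 spread; age is the mean of ALO_GP and ALO_PP minus ALMA, diet the 2 CRO classes minus the 2 ALO classes, performance the 2 PP classes minus the 2 GP classes. Region pairs were fitted in the 9 ad libitum animals, blocked on animal, and the interactions with animal as a random block. The scripts were tested on simulated data. P-values of the class comparisons measure the spread between these animals within classes. Those of the region pairs measure the spread that remains within animals. Those of the interactions measure the spread within class and region, given the random block.

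Named were Psmb5, Psmb6 and Psmb7, and per comparison and region up to 2 genes of largest difference in each direction among those called, or those of smallest p where none was; other genes are named where the calls are few or a table differs, chosen after their values were seen. The members, the gene lists and the tests were chosen with earlier results of these data known. Some genes of these lists are not reported here. Symbols were read from the authors' annotation and promoters from RefSeq. Alternatives were a quantile normalization, the dChip tables, a pseudocount of 1, no filter, the compared classes alone, a replicate block, all 15 animals for region pairs, the mean of a gene's probe sets, the arrays of 1 DapX-3 range, and leaving out each array. Python 3.11.15 with pandas 2.3.3 and matplotlib 3.10.9 was used for counts and plots.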

Additional observations from a re-analysis of the deposited data

Results flagged for a closer look

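Among 49 sets of 6 arrays behind the named values, 6 held an array far from the other 5 by Dixon's test at the 95% level; chance gives about 1 such set in 20. Each is given as a value. In restricted CA1, CRO_PP replicate 3 had a Psma2 signal of 270.3, against 388.9 to 429.5 on the other arrays, and in restricted CA3, CRO_PP replicate 4 had a Psma4 signal of 589.8, against 742.9 to 821.1; these are the 2 arrays of 1 rat that the authors marked. In ad libitum CA3, ALO_PP replicate 4 had a Psma2 signal of 425.8, against 348.0 to 368.2, and a Psmc5 signal of 1520.0, against 1060.0 to 1147. In ad libitum CA1, ALO_PP replicate 2 had a Psmc3 signal of 1227, against 979.5 to 1049. In ad libitum DG, ALO_GP replicate 2 had a Psmd13 signal of 409, against 366.4 to 376.4.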

How the results depend on the processing

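Counts of members called, in both directions together, are given first. The share of all probe sets called moves with the setting too. For age in CA1 in the dChip table it was 19.3% higher and 6.66% lower. It is given above for age and diet in the dChip tables and for diet without the 2 marked arrays. For the other settings it is not given here, so their counts show no gain or loss particular to the members. With the dChip age table they were 8 for age in CA1, 7 for age in CA3 and 3 for CA3 minus CA1, and diet in CA1 gave 1 with the dChip diet table. Quantile normalization gave 1 for diet in CA1 and 1 in CA3. A pseudocount of 1 gave 2 for restricted old against middle-aged rats in CA1 and 2 in CA3, and no filter gave 3 for that comparison in DG and 3 for CA3 minus CA1. With the compared classes alone, age in DG gave 1, diet in CA1 0, and restricted old against middle-aged 2 in CA1 and 1 in CA3. All 15 animals gave 11 for CA3 minus CA1 and 3 for DG minus CA1. The mean of a gene's probe sets gave 2 for age in CA1, 1 for diet in CA1 and 1 in CA3. The arrays of the middle DapX-3 range gave 0 for diet in CA1, and leaving out the 2 marked arrays, chosen after seeing the data, gave 5 for diet in CA3. The replicate block on title numbers gave 2 for age in CA3, 1 for diet in CA1, and 2, 0 and 2 for restricted old against middle-aged rats in CA1, CA3 and DG. Same-numbered arrays had a mean correlation of -0.017 over 84 pairs (-0.57 to 0.41), and arrays of other numbers one of 0.0098 over 186 pairs. With so wide a range this cannot decide whether the numbers mark a shared step. The classes hold different rats.

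Without 1 array, the counts ran from 1 (without ALMA replicate 2) to 4 for age in CA1, 1 (without ALMA replicate 1) to 3 in CA3 and 0 to 4 in DG (0 without ALMA replicate 1). They ran from 0 to 3, 0 to 5 (without CRO_PP replicate 4) and 4 to 6 for diet in CA1, CA3 and DG, from 1 to 7 (without CRO_PP replicate 3), 0 to 7 (without CRO_PP replicate 4) and 2 to 5 for restricted old against middle-aged rats, from 2 to 5 for CA3 minus CA1, 4 to 7 for DG minus CA3 and 0 to 2 for diet by region. The share of all probe sets in such fits is given above only for ALO_PP replicate 3 of CA3 and, with diet, for the marked arrays.

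The core minus cap value for age was -0.0385, 0.000569 and 0.000276 in CA1, CA3 and DG in the dChip table. Quantile normalization gave 0.00252 for restricted old against middle-aged DG. With medians over members it was -0.0103 for age in CA1, 0.0641 for diet in DG, 0.0712 and 0.031 for restricted old against middle-aged CA1 and DG, and 0.12 and 0.0332 for performance in CA1 and DG. Over all 31 genes, the sign in the dChip age table was that of the scaled signals for 24, 21 and 23 with age in CA1, CA3 and DG. Among the named genes of each comparison, differences that changed sign were Psmd4 in DG minus CA1 (0.00179 in the dChip table), Psmd1 for performance in CA3 (-0.0111 in the dChip table) and Psmd4 for diet in CA3 (0.0223 in the middle DapX-3 range). The causes were not tested. Of the alternatives for single genes, 516 kept the direction and the side of the threshold, 108 lost the call, 6 gained one and 3 changed sign. The tally includes the named genes of diet in CA3, performance and DG minus CA1, which had no call to lose. It therefore does not give the share of calls that held. The 3 arrays per class and region limit the precision of every difference.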
